A study of Owenia fusiformis with 11 samples.

Results

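Elongation-transient peaks are regions of accessible chromatin in the annelid Owenia fusiformis whose accessibility was highest at axial elongation and lower at every other stage analysed, both before and after it. They were chosen on their measured values: the mean over the 8 libraries had to reach 100 normalized reads, and the lower of both elongation libraries had to reach at least 1.2 times the highest of the other 6 libraries. This rule was met by 190 of the 63732 consensus peaks in the table, and by 0.399% of the 47582 peaks that passed the minimum mean. Everything said of elongation against the other stages therefore describes how the peaks were chosen, and no test is attached to it.

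The accessibility data came from ATAC-seq, which uses the Tn5 transposase to insert adaptors into DNA that is not covered by nucleosomes or other proteins. There were 2 libraries for each of 4 stages: gastrula at 9 hours post fertilization, elongation at 13 hours, mature larva at 27 hours and competent larva at 3 weeks. All were whole embryos or larvae reared in artificial sea water, the larvae fed with algae. Each library pooled many animals, so a level is an average over all cell types and a change in cell composition cannot be told apart from a change within cells. The 3 RNA-seq samples of the series were not used here.

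Accessible chromatin marks promoters, enhancers and other elements where proteins that control transcription can reach the DNA. In spiralian development, elongation follows gastrulation, when the embryo lengthens and the larval tissues take shape. In Owenia the outcome is the mitraria, a feeding larva with a long ciliated band and chaetae, which later becomes competent to metamorphose. Accessibility alone does not say which gene an element acts on, or whether it activates or represses. No annotation of the assembly was used here, so peaks are given by their identifiers and scaffold positions, and neither genes nor sequence motifs were assigned.

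The stage names need a remark before the values. The accessibility table names its columns by stage, and these headers were used throughout. Each library also has its own list of called peaks, and for 4 of the 8 lists the stage in the list's name is not that of the linked sample: the lists linked to both gastrula samples are named elongation, and those linked to both elongation samples are named gastrula. All 190 members were overlapped by a called peak in both lists named elongation, which are the longest, against 84.1% of all peaks with a mean of at least 100. In both lists named gastrula, 55 members (28.9%) were, against 43.8%. On these peaks the table's headers therefore go with the names of the lists rather than with the links. Which of the assignments is right cannot be told apart from the files alone. If the links were right and the headers wrong, the stage described here as elongation would be the gastrula.

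Reads within peaks were estimated at 7970885 in the shallowest library, competent larva replicate 1, and at 44448252 in the deepest, elongation replicate 2, a 5.576-fold range. A member at the median rested on about 61 reads in competent larva replicate 1 and on about 846 in elongation replicate 2, which gives counting errors of 12.8% and 3.44%. No member was listed at 0 in any library (0 of 190). Competent larva libraries and 1 gastrula library were sequenced on another platform than the rest, so stage and platform cannot be told apart for competent larvae.

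Elongation was the stage with the fewest peaks of its own. Under the same rule with another stage as the high one, 3569 peaks (7.5%) were highest at gastrula, 1149 (2.41%) at the mature larva and 4808 (10.1%) at the competent larva. Elongation also had the fewest peaks at higher ratios. At 1.5 times the highest other library, 15 peaks were left for elongation, against 391 for gastrula, 147 for the mature larva and 2567 for competence. At 2 times, there were 0 for elongation, 33 for gastrula, 10 for the mature larva and 977 for competence. The largest ratio of any elongation peak was 1.797, whereas it was 7.206 for the competent larva. The sampling was uneven in time: 4 hours separated gastrula and elongation, 14 hours separated elongation and the mature larva, and the competent larva was weeks older; the part of this spacing in the counts was not tested. Without elongation replicate 2 the rule was met by 1017 peaks, without elongation replicate 1 by 502, without gastrula replicate 1 by 645 and without gastrula replicate 2 by 341, since a rule with 1 library fewer is easier to meet.

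**Figure D1:**
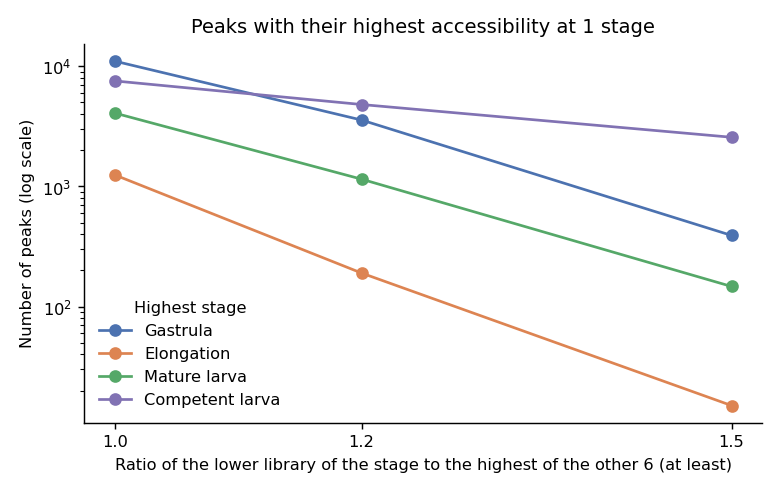
Number of peaks (log scale) whose lower library at 1 stage was at least 1, 1.2 or 1.5 times the highest of the other 6 libraries, with 1 line per stage. The elongation line lies below the other stages throughout and falls from 1245 to 190 and 15 peaks.

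The elevation at elongation was moderate in most members. The median member had 336.6 and 328.1 normalized reads in the elongation libraries, against 208.2 and 201.1 in gastrula, 184.5 and 204.5 in the mature larva, and 147.6 and 158.9 at competence. Both neighbouring stages were thus at a like level, and competent larvae were lowest. The elongation mean was 1.597 times the gastrula mean at the median (range 1.226 to 3.093), 1.602 times the mature larva mean (1.286 to 4.478) and 2.128 times the competent larva mean (1.276 to 6.879). The ratio that defined the members had a median of 1.297. It lay between 1.2 and 1.3 in 97 members, between 1.3 and 1.5 in 78, and reached at least 1.5 in 15.

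**Figure D2:**
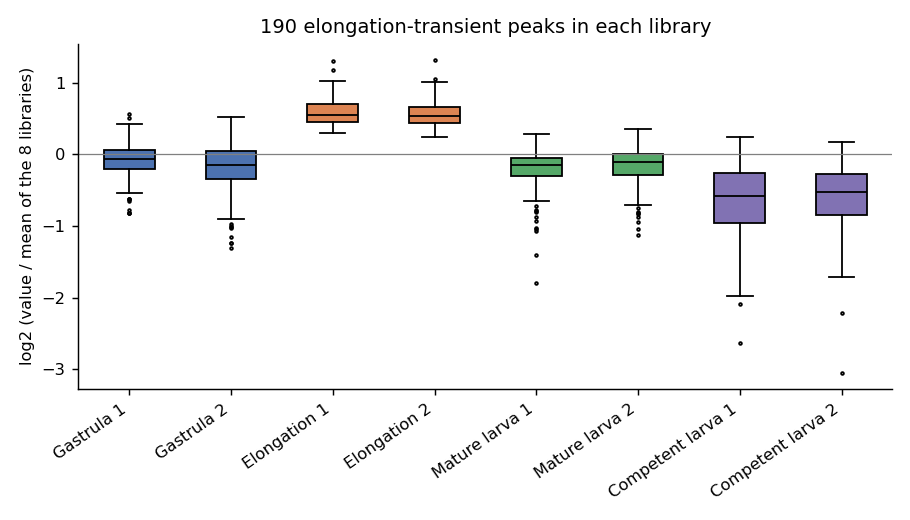
Accessibility of the 190 members in each library, as log2 of the value over the member's own mean of 8 libraries. Boxes span the quartiles with the median as a line, and points beyond the whiskers are single members. The elongation boxes lie above 0 and the competent larva boxes are the lowest.

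The rule left a sharp edge in a continuous range. Just inside it lay OFUS_peak_23859, OFUS_peak_17839 and OFUS_peak_46870, with ratios of 1.2022, 1.2021 and 1.201. Just outside lay OFUS_peak_24469, OFUS_peak_15163 and OFUS_peak_54648, with ratios of 1.1991, 1.199 and 1.1974. For example, OFUS_peak_17839 (scaffold 5, 9647749 to 9648124) had 346.3 and 316.7 reads at elongation and at most 263.4 elsewhere, whereas OFUS_peak_24469 (scaffold 7, 2937100 to 2937469) had 362.2 and 381.1 at elongation and at most 302.1 elsewhere. A further 1055 peaks were highest at elongation in both libraries by less than 1.2 times. They were taken for comparison after the data had been seen.

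OFUS_peak_23806 (scaffold 6, 23789707 to 23791149, 1443 bp) had the largest ratio, 1.7966. Its values were 406.9 and 422.3 normalized reads at gastrula, 830 and 758.6 at elongation, 380.8 and 389.8 in the mature larva, and 114.9 and 203.3 at competence. It stood at about the same level on both sides of elongation and then closed further by competence. OFUS_peak_34931 (scaffold 10, 8250087 to 8251098) followed a like course, with 208.9 and 201 at gastrula, 366.8 and 414.5 at elongation, 206.9 and 165.1 in the mature larva, and 76.79 and 64.95 at competence. In both peaks, every competent larva value was below every value of the other stages.

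OFUS_peak_9408 (scaffold 3, 5697985 to 5698288, ratio 1.7626) behaved otherwise. Its values were 85.09 and 63.63 at gastrula, 174 and 206.8 at elongation, 29.89 and 76.88 in the mature larva, and 98.74 and 96.43 at competence. The mature larva was its lowest stage by mean, with replicates far apart, and its competent larva values were above both gastrula values. OFUS_peak_9667 (scaffold 3, 7278435 to 7278706, ratio 1.6698) was flat outside elongation: 76.26 and 94.51 at gastrula, 180.6 and 180.3 at elongation, 79.11 and 108 in the mature larva, and 84.25 and 80.08 at competence. The values of its 3 lower stages overlapped.

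OFUS_peak_19658 (scaffold 5, 22027033 to 22027405, ratio 1.6737) had the largest elevation over gastrula of all members, 3.093 times. Its values were 231.3 and 181.9 at gastrula, 686.8 and 591.2 at elongation, 353.2 and 334.2 in the mature larva, and 232.4 and 232.5 at competence. After elongation it declined in steps to about the gastrula level. OFUS_peak_35327 (scaffold 10, 12768028 to 12768211, ratio 1.652), only 184 bp wide, had 98.26 and 106.1 at gastrula, 189 and 175.2 at elongation, 94.06 and 61.21 in the mature larva, and 98.7 and 52.26 at competence. Its replicates at the larval stages differed too much to order those stages.

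**Figure D3:**
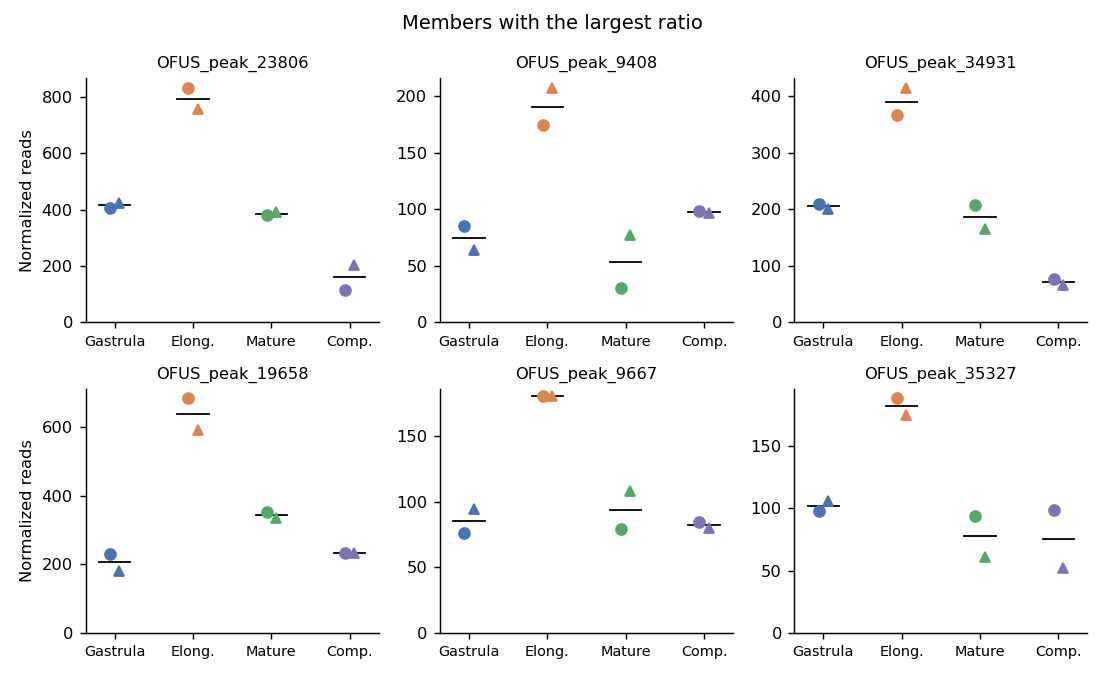
Normalized reads of the 6 members with the largest ratio at each stage. Circles are replicate 1, triangles replicate 2 and bars the mean of both; the vertical axes start at 0 and differ between panels. Elongation is highest in each panel, whereas the order of the other stages differs between members.

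The 15 members with a ratio of at least 1.5 were not restricted to low levels or narrow peaks. Their median width was 591 bp and the median of their mean values was 213.1, against 527 bp and 222.4 in the other 175. Among them, OFUS_peak_47248 (scaffold 15, 13717117 to 13717748) had 751.3 and 701.3 reads at elongation, 308.1 and 311.8 at gastrula, 450.6 and 416.2 in the mature larva, and 174.8 and 168.2 at competence. The replicates of this peak were close at all 4 stages. OFUS_peak_18300 (scaffold 5, 12823340 to 12824291), chosen like the preceding peak after its values had been seen, had 707.8 and 758.1 at elongation and between 371.6 and 456.2 in the other libraries.

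The members with the highest levels had small ratios. OFUS_peak_28030 (scaffold 8, 3320125 to 3321633) had 1130 and 1035 reads at gastrula, 1832 and 1694 at elongation, 1405 and 1337 in the mature larva, and 1295 and 1189 at competence. OFUS_peak_45955 (scaffold 15, 5093700 to 5094865) had 967.2 and 903.8, 1626 and 1512, 1147 and 1206, and 1030 and 867.6 at the same stages in turn. These regions were thus open throughout and opened further at elongation. OFUS_peak_42293 (scaffold 13, 10515346 to 10517114) had 1718 and 1665 at elongation against 1379 and 1215 at gastrula, with 1225 to 1333 in the larval libraries. OFUS_peak_10347 (scaffold 3, 11950938 to 11952768) had 1410 and 1381 at elongation and 1103 and 1136 at gastrula. It decreased to 970.6 and 1012 in the mature larva and to 861.1 and 748.7 at competence. All 4 were wider than 1000 bp, which raises a value that is not divided by length.

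The members had a smaller median width than other peaks. Their median width was 528 bp (116 to 2773), against 718 bp over all peaks with a mean of at least 100 and 633 bp over the 1055 peaks highest at elongation by less than 1.2 times. Members narrower than 1000 bp made up 82.6%, against 68.7% of all such peaks. Peaks chosen by the same rule had median widths of 638 bp for gastrula, 972 bp for the mature larva and 774 bp for competence. The total level of members was close to that of other peaks, with a median mean value of 220.4 against 242.8. Per kilobase, however, the median was 426 against 368.5, and it was 423.5 in the 1055 peaks highest at elongation by less than 1.2 times. These means include the elongation libraries, in which the rule chose members for high values, so the values per kilobase are not independent of the choice.

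Elongation values of the members were close between replicates, as the rule favours. The ratio of replicate 2 to replicate 1 had a median of 0.9906 and ranged from 0.5815 to 1.598, and replicate 1 was the higher in 100 of 190. To see how far the elevation held from 1 replicate to the other, the libraries numbered 1 gave the ratio and those numbered 2 were read. The minimum mean was taken over all 8 libraries, so the libraries read took part in that filter. Peaks chosen this way include the 190 members, which reach 1.2 times in both replicates by the rule. On replicate 1 alone, 2045 peaks had an elongation value at least 1.2 times the others. In replicate 2, 797 of these (39%) were again highest at elongation, against 12.3% of all peaks with a mean of at least 100, and 359 (17.6%) again reached 1.2 times, against 3.63%. In the opposite direction, 781 of 1727 peaks (45.2%) were highest at elongation, against 16.6%. At this ratio, fewer of the chosen peaks kept elongation as their highest stage in the other replicate than lost it, whereas at a ratio of 1.5 the shares that kept it were 52.7% and 52.5%.

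The question left to the tests was how the members behaved between the stages that are not elongation. These contrasts were fitted with limma on log2(value + 1) over 61869 peaks, and a peak was called at an adjusted p under 0.05, with the p-values adjusted over all peaks fitted. The contrasts do not hold elongation values. However, the rule caps the values of the other 6 libraries, and the shared estimate of spread includes the elongation libraries, whose closeness it favoured. The deposited values also differ between stages in their overall level: the median of all peaks was -0.22 on the log2 scale from gastrula to mature larva, -0.08 from mature to competent larva and -0.32 from gastrula to competent larva, and the members were read relative to these.

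From gastrula to the mature larva, few members were called in either direction. Only 6 of 190 (3.16%) were called higher in the mature larva, and 10 (5.26%) were called lower. The shares were 10.6% and 17.4% over all peaks fitted, and 13.4% and 18.3% over peaks with a mean of at least 100. The median log2 change of members was -0.03, or 0.19 above the median of all peaks fitted. Over peaks with a mean of at least 100 the median was -0.17. Replicates of both stages did not overlap in 36 members with the mature larva above gastrula (18.9%; 25.6% of all peaks with a mean of at least 100) and in 52 with it below (27.4%; 43.6%). The rule caps both stages at the same height, so few large differences between them are part of the choice, and the 1055 peaks highest at elongation by less than 1.2 times gave 2.46% higher and 6.82% lower calls. Quantile normalization shifted all peaks: the members' median became 0.14, which was 0.18 above the median of all peaks, and the calls became 9 higher (4.74%) and 5 lower (2.63%), against 11.9% and 10.3% of all peaks. The count of 16 calls fell to 3 without mature larva replicate 1, to 4 without replicate 2 and to 6 without elongation replicate 1. The shares of all peaks fell in those fits as well, to 4.41%, 5.39% and 7.57% higher and to 4.15%, 6.33% and 10.1% lower.

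OFUS_peak_51300 (scaffold 18, 4768711 to 4769044) had the largest called rise across elongation. Its values were 76.26 and 54.01 at gastrula, 191.9 and 205 at elongation, 119.4 and 139.2 in the mature larva, and 64.99 and 105.9 at competence. It thus kept part of its elevation in the mature larva, with a log2 change from gastrula of 0.99 (SE 0.30, limma adjusted p = 0.0256). OFUS_peak_53994 (scaffold 20, 6954244 to 6954969) went from 170.7 and 104.4 at gastrula to 371.6 and 444.5 at elongation, 255.8 and 242.7 in the mature larva and 213.5 and 171.1 at competence, with a log2 change from gastrula to mature larva of 0.89 (SE 0.24, limma adjusted p = 0.014). Both calls were lost without either mature larva library, without gastrula replicate 2 or without elongation replicate 1. That of OFUS_peak_51300 was also lost without elongation replicate 2. Both were lost with peaks at 0 in every library included, and that of OFUS_peak_53994 also without a mean trend. The highest adjusted p over the alternatives was 0.168 and 0.126 in limma. Without gastrula replicate 2, the change of OFUS_peak_53994 was 0.54.

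OFUS_peak_653 (scaffold 1, 4718353 to 4718722) showed the opposite course. It had 402 and 317.2 reads at gastrula, 570.5 and 580 at elongation, 142.6 and 169.7 in the mature larva, and 91.1 and 125.1 at competence. It was open in the embryo and had largely closed by the larva, with a log2 change from gastrula to mature larva of -1.19 (SE 0.22, limma adjusted p = 0.0012), and it was called in each of the 14 alternatives. OFUS_peak_46068 (scaffold 15, 5896998 to 5898125) had 269.2 and 322.8 at gastrula, 427.9 and 412.5 at elongation, and 84.8 and 102.9 in the mature larva. Its competent larva replicates, 146.4 and 27.06, were 5.408-fold apart, the widest of any member at that stage. Its log2 change to the mature larva was -1.65 (SE 0.50, limma adjusted p = 0.0241), a call that 5 of the 14 alternatives kept and that leaving out any gastrula, elongation or mature larva library removed (adjusted p up to 0.197).

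From the mature to the competent larva, nearly all called members fell. There were 49 called lower (25.8%) and 1 called higher (0.526%). The shares were 7.33% and 7.99% over all peaks fitted, and 9.07% and 9.11% over peaks with a mean of at least 100. The median log2 change of members was -0.41, or 0.33 below the median of all peaks fitted. Over peaks with a mean of at least 100 the median was -0.11. The competent larva lay below the mature larva without overlap of replicates in 123 members (64.7%; 39.9% of all peaks with a mean of at least 100) and above it in 14 (7.37%; 25%). The rule leaves out peaks that reach or pass the elongation level at competence, so the few rises are part of the choice. How far the choice also shaped the share of falls was not tested. The 1055 peaks highest at elongation by less than 1.2 times gave 18.9% lower and 0.379% higher calls, so falls also outnumbered rises among peaks that only approached the rule. The count of 50 calls fell to 13 without mature larva replicate 1, to 15 without mature larva replicate 2, to 16 without competent larva replicate 1 and to 23 without elongation replicate 1. The share of all peaks called lower fell as well in those fits, to between 0.757% and 2.75%, against 6.84% to 12.1% of members.

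OFUS_peak_151 (scaffold 1, 1305992 to 1307417) had 207.9 and 362.2 reads at gastrula, 673.4 and 577.8 at elongation, 420.8 and 423.2 in the mature larva, and 86.17 and 184.4 at competence. It stayed partly open in the mature larva and then closed, with a log2 change of -1.73 (SE 0.30, limma adjusted p = 0.00177). This call was lost without elongation replicate 1, mature larva replicate 1 or competent larva replicate 1 (adjusted p up to 0.0841). OFUS_peak_22630 (scaffold 6, 16204231 to 16204915) had the largest fitted fall, -1.87 (SE 0.48, limma adjusted p = 0.0169), from 114.8 and 152.2 to 19.23 and 64.37. The lowest of these values is about 8 reads, and without that library, competent larva replicate 1, the change was -1.03 and the call was lost (adjusted p up to 0.257 over the alternatives). It was also lost without either mature larva library or either elongation library. Quantile normalization, no mean trend and the inclusion of peaks at 0 in every library each removed the call as well.

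OFUS_peak_13229 (scaffold 4, 4868221 to 4868594) was the 1 member called higher in the competent larva. Its values were 213.3 and 160.4 at gastrula, 303.1 and 322.2 at elongation, 108.6 and 112.4 in the mature larva, and 244.7 and 187.4 at competence. The region therefore dipped in the mature larva and was open again at competence, at 0.95 on the log2 scale above the mature larva (SE 0.23, limma adjusted p = 0.0118). The call was lost without elongation replicate 1, either mature larva library or competent larva replicate 1 (adjusted p up to 0.145).

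**Figure D4:**
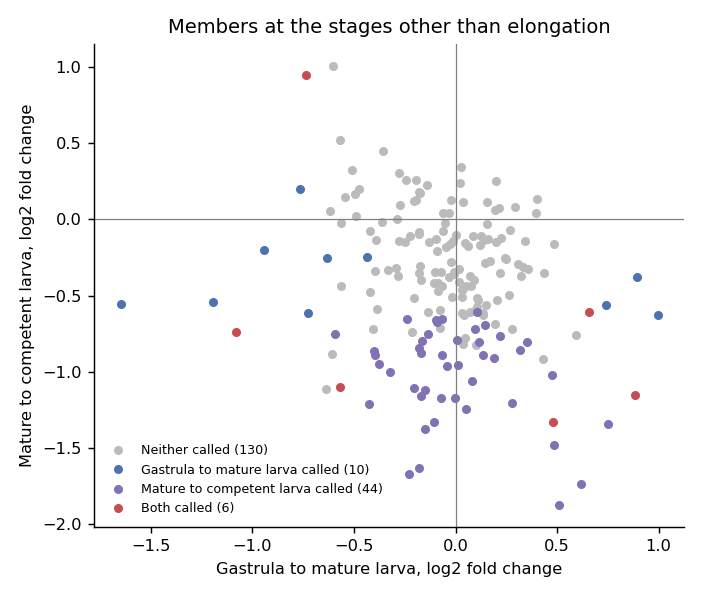
Log2 fold change of the 190 members from gastrula to mature larva (horizontal) and from mature to competent larva (vertical), on the log2(value + 1) scale. Each point is 1 member, coloured by the contrasts in which limma called it; most called members lie below the horizontal line at 0.

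From gastrula to the competent larva, 68 members (35.8%) were called lower, which is near the background. The share was 29.6% over all peaks fitted and 33.1% over peaks with a mean of at least 100. None was called higher (0 of 190 by limma, 1 at an unadjusted p under 0.05), against 15.7% and 19.2% of the same peaks. Competent larva values lay below gastrula without overlap in 119 members (62.6%; 49.6% of all peaks with a mean of at least 100) and above it in 12 (6.32%; 26.3%). The rule leaves out peaks that reach or pass the elongation level at competence, so the few rises are part of the choice, and the 1055 peaks highest at elongation by less than 1.2 times gave 0.758% higher and 35% lower. With quantile normalization, 5 members (2.63%) were called higher and 43 (22.6%) lower, against 17.4% and 18% of all peaks. OFUS_peak_7090 (scaffold 2, 26511574 to 26512169) had 343 and 282.3 reads at gastrula, 415.7 and 456.9 at elongation, 251.2 and 280.8 in the mature larva, and 69.54 and 98.06 at competence. Its log2 change from gastrula to the competent larva was -1.90 (SE 0.22, limma adjusted p = 1.2e-05), and it was called in each of the 14 alternatives. OFUS_peak_46068 changed by -2.202 (SE 0.50, limma adjusted p = 0.00262) between the same stages, a call that was lost without elongation replicate 1 (adjusted p up to 0.0801 over the alternatives). With competent larva replicate 2 left out the change was -1.005, and with replicate 1 of that stage left out it was -3.398.

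Combining the 3 contrasts, 112 members (58.9%) were called in none, against 46.1% of all peaks fitted. The most frequent pattern among the others, in 40 members (21.1%), was no call from gastrula to mature larva and a fall to the competent larva from both. It was found in 3.71% of all peaks and in 14.9% of the 1055 peaks highest at elongation by less than 1.2 times. The rule used the values of these stages, and its part in this pattern was not tested. In 18 members (9.47%; 12.5% of all peaks) only the fall from gastrula to the competent larva was called, and in 7 (3.68%; 12.1%) the falls from gastrula to both larval stages. The competent larva had the lowest of the 3 other stage means in 139 members (73.2%), against 48.8% of all peaks with a mean of at least 100 and 69.6% of the 1055 peaks highest at elongation by less than 1.2 times. The second highest stage was gastrula in 93 members (48.9%), the mature larva in 77 (40.5%) and the competent larva in 20 (10.5%), against 53.6%, 21.5% and 24.9%. The elongation mean was at least 2 times the competent larva mean in 109 members (57.4%) and at least 3 times in 44 (23.2%). The rule used these values. The shares were 6.72% and 1.52% of all peaks with a mean of at least 100. Of the 1055 peaks highest at elongation by less than 1.2 times they were 27.7% and 7.2%. Among members, the largest such difference was in OFUS_peak_27870 (scaffold 8, 2326585 to 2326789). It had 300.9 and 298.1 reads at elongation and 55.25 and 31.83 in the competent larva. Its gastrula replicates, 208.6 and 98.49, were far apart, and its mature larva values were 110.3 and 76.66.

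The lists of called peaks from single libraries gave a second view of the same reads, and so a description only. Taken by the names of the lists, the members were overlapped by at least 1 bp in 100% and 100% of cases in the elongation lists (85.6% and 92.7% of all peaks with a mean of at least 100). The lists named gastrula held 57.9% and 32.6% of members (67.7% and 50.5%), those of the mature larva 45.3% and 53.2% (49.9% and 55.7%), and those of the competent larva 16.3% and 40% (40.9% and 56.1%). The share of members was therefore below that of all such peaks in each list outside those named elongation. The lists differed in length from 39906 to 133993 peaks, with the lists named elongation the longest. Cut to the 39906 peaks of the shortest by rank, the lists named elongation held 69.5% and 74.2% of members (37.4% and 40.8% of all such peaks), those named gastrula 33.7% and 21.6% (35.1% and 33.9%), and those of the mature larva 34.7% and 39.5% (38% and 37.6%). By the samples to which the lists are linked, 55 members (28.9%) were called in both lists linked to elongation, against 43.8% of all such peaks.

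Members called only in the lists named elongation numbered 48 (25.3%), against 5.22% of all peaks with a mean of at least 100 and 19% of the 1055 peaks highest at elongation by less than 1.2 times. In all 8 lists, 19 members (10%) were called, against 18.3% and 18.9%. OFUS_peak_9667 and OFUS_peak_35327 were among the 48. OFUS_peak_9667 had fold enrichments of 2.633 and 2.16 over the local background in the lists named elongation, and OFUS_peak_35327 had 2.444 and 2.324. OFUS_peak_28030, open throughout, was called in all 8, with 4.636 and 2.978 in the lists named elongation and between 2.042 and 4.017 in the others. The median fold enrichment of members in the lists named elongation was 4.04 and 3.082, against 3.3 and 2.531 for all such peaks. In the lists of the mature larva it was 2.53 and 2.309, close to the 2.599 and 2.364 of all such peaks.

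The summits of the called peaks, where coverage was highest, were placed alike in both lists named elongation. They lay a median of 20.5 bp apart in members, against 45 bp in all peaks with a mean of at least 100 called in both, and within 50 bp in 70.5%, against 53.5%. Among peaks narrower than 1000 bp the medians were 20 bp and 41 bp, and widths were not matched further. Levels were not matched either, and the rule chose members for high elongation values. Median elongation values were 336.6 and 328.1 in members, against 236.4 and 229.8 in all peaks with a mean of at least 100.

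**Figure D5:**
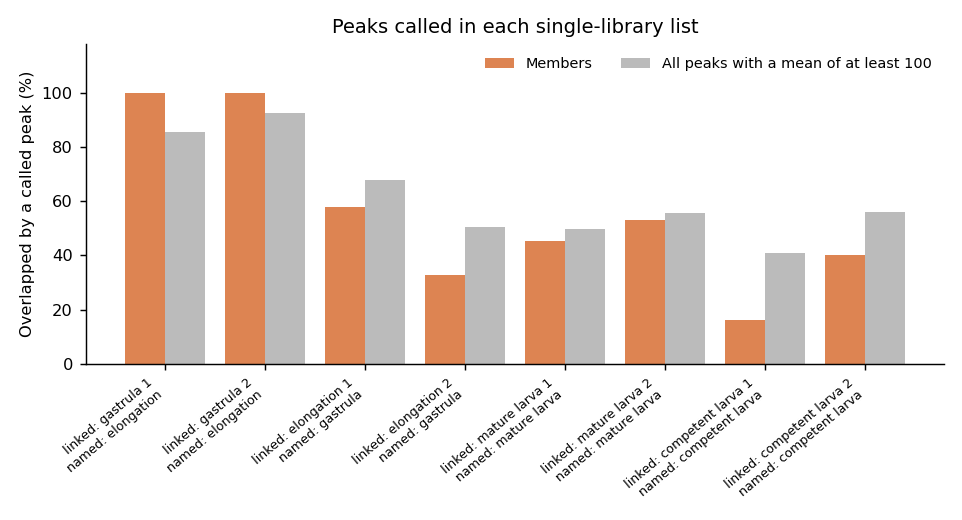
Percent of the 190 members (orange) and of all peaks with a mean of at least 100 (grey) overlapped by a called peak in each single-library list. The axis labels give the stage of the linked sample and the stage in the list's name, which differ for the first 4 lists; members reach 100% in both lists named elongation and 16.3% in the list of competent larva replicate 1.

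Members were scattered over the genome. They lay on 32 of the 40 scaffolds, with 18 on scaffold 1 and 16 each on scaffolds 3 and 5. Over the 19 scaffolds with at least 1000 peaks of the minimum mean, the share of members ranged from 0.0829% on scaffold 22 to 0.662% on scaffold 14. The nearest consensus peak was a median of 1805 bp away, against 1768 bp for all such peaks. The nearest peak, where it lay within 5 kb and passed the minimum mean, gave 136 different neighbours, members among them. In these neighbours, the median log2 of elongation over the mean of the other 6 libraries was 0.06, against -0.05 in the neighbours of all such peaks, and 13 (9.56%) were highest at elongation in both libraries, against 2.79%. Any member among the 13 is highest at elongation by the rule, and such members were not counted apart. The neighbours of the 1055 peaks highest at elongation by less than 1.2 times gave 0.05 and 6.69%.

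Members within 10 kb of each other formed 5 pairs, and 13 pairs were closer than 50 kb. The closest were OFUS_peak_25620 and OFUS_peak_25621 on scaffold 7, with 171 bp between them. OFUS_peak_25620 had 307.8 and 381.1 reads at gastrula, 499.2 and 547.6 at elongation, 233.2 and 221 in the mature larva, and 103.1 and 175.8 at competence. OFUS_peak_25621 had 690.3 and 669.2, then 897.6 and 835.9, 527.5 and 477.3, and 449.1 and 397.2 at the same stages. Both were lower in each larval library than at gastrula. On scaffold 4, OFUS_peak_16251 and OFUS_peak_16252 were 2017 bp apart with no other peak between.

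The members of that second pair shared elongation as the highest stage but not the rest. OFUS_peak_16251 fell from 964.5 and 1013 at elongation to 331.4 and 357.3 in the mature larva and 205.6 and 206.5 at competence, after 743.2 and 713.4 at gastrula. OFUS_peak_16252 had 612.1 and 512 at gastrula, 842.4 and 875.8 at elongation, 502.6 and 422.6 in the mature larva, and 604.5 and 536.3 at competence. Its values at competence and at gastrula overlapped. On scaffold 16, OFUS_peak_48707 and OFUS_peak_48708 were 2786 bp apart, with 404.4 and 354.9, and 356.4 and 247.2 reads at elongation. OFUS_peak_48708 was at 74.42 and 117.1 in the competent larva, and OFUS_peak_48707 at 278 and 292.7. On scaffold 6, OFUS_peak_22628 lay 4781 bp from OFUS_peak_22630 with 1 peak between them. It had 133.7 and 108.2 at gastrula, 244.7 and 391.2 at elongation, 157.9 and 93.4 in the mature larva, and 60.03 and 64.32 at competence. Both members of that pair had their lowest stage mean in the competent larva. The fifth pair, OFUS_peak_28372 and OFUS_peak_28374 on scaffold 8, lay 8568 bp apart and had 206.2 and 226.5, and 151.7 and 217.5 reads at elongation.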

How the data were processed

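ATAC-seq was done in 2 replicates per stage, which the study calls biological replicates; whether they came from separate cultures is not stated, and the p-values measure the spread between these libraries. The authors trimmed reads, mapped them with NextGenMap, removed duplicates, shifted the reads for Tn5 and called peaks per library with MACS2 2.2.7.1. The study made its own assembly and annotation of the species, which were not used here; the files do not name the build of their coordinates. The deposited table holds, per consensus peak, a normalized signal (reads scaled between libraries with DESeq2 by the authors), not divided by width. The deposited peak lists hold a fold enrichment (ratio), and -log10 p-values and -log10 q-values from MACS2. Low values of the table were whole multiples of 1 read within 0.1, but only 16.2% to 53.4% of all values were, so read numbers are approximate and no count model was used. The counting errors of read numbers do not cover the spread between libraries.

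The 2 accessibility columns of samples outside those given were not used. The expression table was not used, since nothing pairs peaks with transcripts. Stages were fitted in 1 model with limma 3.58.1 (R 4.3.3) on log2(value + 1), with a mean trend and Benjamini-Hochberg adjustment over 61869 peaks; 1863 peaks at 0 in all libraries were left out. The script was tested on simulated data with known changes. Lists were compared with bedtools 2.31.1 at an overlap of 1 bp. Peaks named were the 6 with the largest ratio, the 4 with the highest elongation mean, 3 on each side of the threshold, the 2 largest called rises and falls per contrast, and neighbouring members; others are given as extremes of a range or said to be chosen after their values were seen. The members and lists were chosen with earlier results of these data known.

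Alternatives were another pseudocount, filter, normalization, ratio, minimum mean and overlap, a replicate block, and leaving out each library.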

Additional observations from a re-analysis of the deposited data

How the results depend on the processing

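The numbers of members called were 16, 50 and 68 from gastrula to mature larva, from mature to competent larva and from gastrula to competent larva. Without a mean trend they were 9, 29 and 57, and with peaks at 0 in every library included the second was 33. The shares of all peaks fitted moved as well. From mature to competent larva, 25.8% of members and 7.33% of all peaks were called lower. Without a mean trend these shares were 14.7% and 2.6%, and with peaks at 0 in every library included 16.8% and 3.56%. Leaving out 1 library gave 3 to 16, 13 to 63 and 54 to 64. Of the 9 named fold changes under 14 alternatives, none changed sign (0), 39 values lost the call and 87 kept it. With a replicate block the counts were 19, 59 and 74, and 30.5% of members and 8.95% of all peaks were called lower from mature to competent larva. Deviations of same-numbered libraries correlated at 0.011 to 0.206, above 0 in every pair of stages and highest for gastrula with elongation. Whether same-numbered libraries belong together cannot be told from these values.

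The 190 members became 462 at a ratio of 1.1, 15 at 1.5, 107 at a minimum mean of 200, 367 with quantile normalization (175 of the 190 among them) and 343 with equal totals (187 of the 190), and 210 to 1017 when 1 library was left out. The share highest at elongation in the replicate not used for the ratio, 39%, was 45.2% with the replicates exchanged, 50.2% with quantile normalization and 52.7% at a ratio of 1.5. Members called in both lists linked to elongation were 28.9%, against 43.8% of all peaks with a mean of at least 100. With the gastrula and elongation lists exchanged the shares were 100% and 84.1%. At a -log10 q of at least 5 they were 18.4% and 26.8%. With an overlap of at least 0.5 of the peak they were 4.74% and 7.65%, and with lists shortened to equal length 17.9% and 23.3%. The cause of these shifts was not tested. With 2 libraries per stage, and about 61 reads at the median member in the shallowest, small differences between the stages other than elongation were not detectable.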
